A study of Arabidopsis thaliana with 12 samples.

Results

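Transcripts of 5 genes for enzymes of amino acid synthesis and sulfate activation were followed in Arabidopsis thaliana plants given proline. They are AT-HF (AT4G26900, histidine synthesis), AT5G10920 (arginine synthesis), APS4 (AT5G43780, sulfate activation), CBL (AT3G57050, methionine synthesis) and AT3G58610 (branched-chain amino acid synthesis). Each was taken through the probe that the platform annotation pairs with that gene and no other, so the 5 genes stand for 5 of the 692 probes with exactly 1 gene, in a table of 3439 probes. All 5 were bright enough to be tested. Proline samples (6) came from wild-type plants of the ecotype Wassilevskija that received 100 mM proline for 6 h, a treatment labelled as leading to toxic proline in the cells. Water samples (6) came from wild-type plants of the same ecotype, with no duration given, so the length of treatment and proline itself cannot be told apart. No organ, age or number of plants is labelled. Whether a sample was a plant of its own is unknown, and the p-values then cover only the spread among samples, which may be technical.

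Plants make histidine, arginine, methionine and the branched-chain amino acids largely in the plastid, with enzymes encoded in the nucleus. Sulfate is first activated by ATP sulfurylase, after which it can be reduced to sulfide for cysteine, and cysteine supplies the sulfur of methionine. Proline builds up in plants under drought and salt, and its synthesis and breakdown are tied to arginine through glutamate semialdehyde and ornithine.

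Intensities had been deposited on a linear scale from 0 to 100, and sample medians were 0.213 to 0.361 in proline and 0.171 to 0.188 in water, with proline samples 3 and 4 highest. Values below are quantile-normalized intensities unless called deposited, fold changes are proline over water from limma over all 3097 tested probes, and a gene was called at a Benjamini-Hochberg adjusted p under 0.05. Samples 1 and 2, 3 and 4, and 5 and 6 of a group resembled each other more than the rest of the group, so the fit on the 3 means of these pairs is given beside the fit on 6 samples. The 5 markers of green tissue had signal in every sample, with 0.722 as the lowest value, against a floor of 0.0377 set in processing. Of these, PSBY and LHB1B2 were called lower with proline and PSBW higher, and PSAN and PRK were not called. Under median centring all 5 were below 0, with PSBW at -0.31 log2 against 0.64 here. PSAN was called lower there (-0.58, limma adjusted p = 0.0047), and LHB1B2 was not called under cyclic loess (limma adjusted p = 0.169). None of PSBY, LHB1B2 and PSBW was called with the means of pairs (limma adjusted p = 0.080, 0.127 and 0.056). Their part in the results below was not tested. In bulk samples, fewer cells of a type and less RNA per cell cannot be told apart.

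Of the 5 genes, AT-HF and AT5G10920 were higher with proline and 0 were lower. Among all tested probes 38.0% changed, 17.1% higher and 20.9% lower. With the means of pairs the same 2 genes were higher, against 8.40% of all tested probes. With the replicate number as a block 3 of the 5 were higher, APS4 being the one added (limma adjusted p = 0.046), against 18.9% of all tested probes. The median log2 fold change of the 5 genes was 0.29, against -0.03 over all tested probes. In the deposited values, where the median probe was 0.41 higher with proline and 38.6% of probes were called higher, all 5 genes were called higher. Relative to that median probe the median of the 5 genes was 0.50 there, against 0.32 after quantile normalization. The share of higher among called probes was 45.0% after quantile normalization and 87.0% in the deposited values. Quantile normalization gives all samples the same distribution, so the 45.0% is no independent reference for the 87.0%. The calls in the deposited values include the shift of the median probe, and the cause of that shift was not tested.

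**Figure D1:**
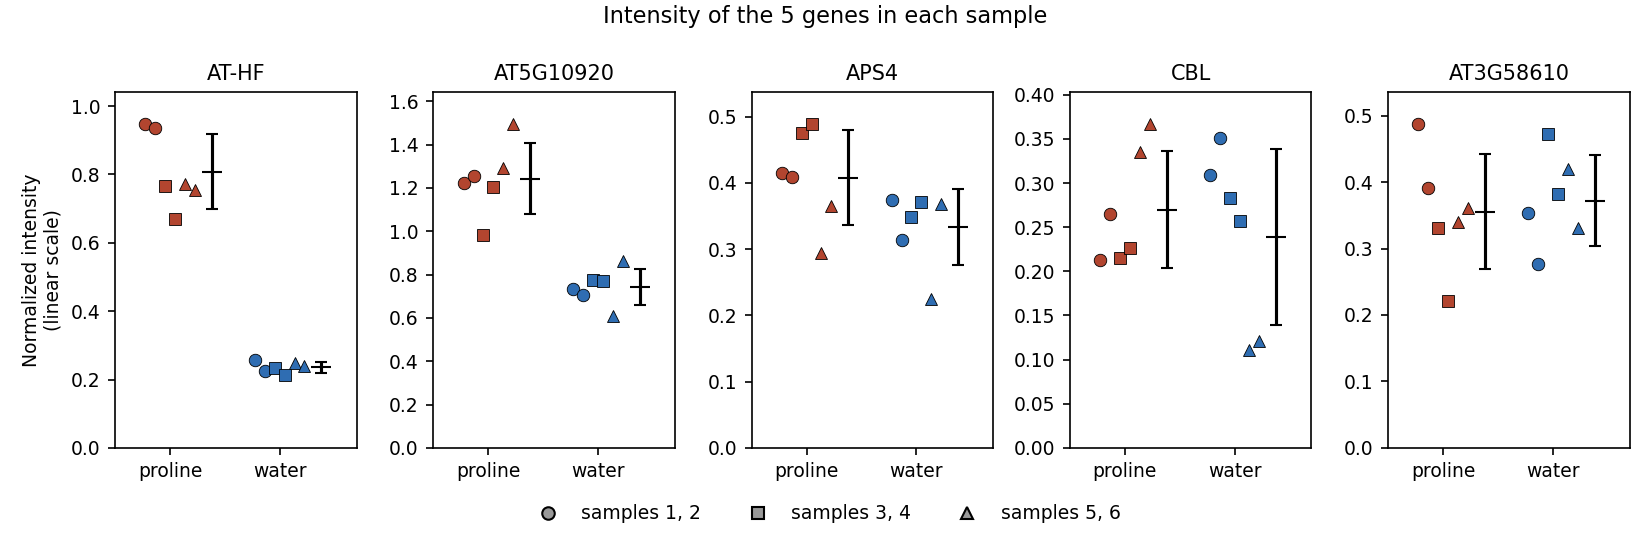
Normalized intensity (linear scale) of each gene in the 6 proline and 6 water samples, with marker shapes for samples 1 and 2, 3 and 4, and 5 and 6, and bars for the mean ± SD of a group. The groups stand apart for AT-HF (0.670 to 0.946 against 0.213 to 0.257) and AT5G10920 and overlap for the other three, and water samples 5 and 6 are low for CBL.

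AT-HF encodes the enzyme of histidine synthesis that closes the imidazole ring and makes imidazole glycerol phosphate. Its intensity was 0.670 at the lowest, 0.770 at the median and 0.946 at the highest in proline, against 0.213, 0.237 and 0.257 in water. Every proline sample was at least 2.6 times the brightest water sample. Proline stood above water without overlap for 10.4% of tested probes.

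The fold change of AT-HF was 3.40 (95% interval 2.91 to 3.97; log2 fold change 1.77, SE 0.10, limma adjusted p = 9.3e-08). With the means of pairs it was called as well (SE 0.16, adjusted p = 0.0019). Proline samples 1 and 2 were the brightest, at 0.946 and 0.935, and proline sample 4 the dimmest.

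Samples of the same number differed by 2.06 log2 for number 2 at the most and by 1.64 for number 5 at the least, and all 6 differences were above 0. The share of tested probes with all 6 differences above 0 was 17.6%. Water samples were close together for this gene, with a coefficient of variation of 6.86%, against 13.6% in proline. Of all 3097 tested probes, AT-HF had the 55th highest log2 fold change, and among the 620 with 1 gene it had the 17th.

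The separation of AT-HF did not rest on the normalization. In the deposited values it stood at 0.828 to 1.09 in proline and at 0.165 to 0.207 in water. Divided by the median of their own sample, these values were 2.56 to 4.62 in proline and 0.963 to 1.15 in water, with proline samples 3 and 4, the samples of highest median, at 2.77 and 2.56. Relative to the median probe, the log2 fold change was 1.94 in the deposited values and 1.80 after quantile normalization.

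AT5G10920 encodes argininosuccinate lyase, which releases arginine and fumarate in the last step of arginine synthesis. It stood at 0.984 at the lowest, 1.24 at the median and 1.49 at the highest in proline, against 0.608, 0.752 and 0.865 in water. The groups did not overlap, which held with proline above water for 10.4% of tested probes, and proline sample 3 came nearest to the water samples.

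The fold change of AT5G10920 was 1.67 (95% interval 1.40 to 1.99; log2 fold change 0.74, SE 0.12, limma adjusted p = 0.00032). With the means of pairs it was called too (SE 0.15, adjusted p = 0.025), and with 1 of the 6 means left out it held in 2 of 6 fits. Without the mean of proline samples 1 and 2, or that of water samples 1 and 2, 3 and 4 or 5 and 6, the limma adjusted p was 0.058, 0.079, 0.074 and 0.072.

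Same-number differences of AT5G10920 were all above 0, as for 17.6% of tested probes, and they ran from 0.35 log2 for number 3 to 1.09 for number 5. Water samples 5 and 6, which resembled each other over the array, were the lowest and the highest water sample for this gene, at 0.608 and 0.865. Divided by the sample median, the deposited values were 3.31 to 7.50 in proline and 2.66 to 3.97 in water, so on that scale the groups overlapped. Proline sample 3, at 3.31, was the proline sample inside the water range.

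APS4 encodes an ATP sulfurylase, the enzyme that joins sulfate to ATP and so activates it. Its intensity was 0.295 at the lowest, 0.411 at the median and 0.488 at the highest in proline, against 0.224, 0.359 and 0.374 in water. The groups overlapped, with proline samples 5 and 6, at 0.295 and 0.365, inside the range of the water samples.

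APS4 did not pass in the fit on 6 samples per group, with a log2 fold change of 0.29 (SE 0.16, 95% interval -0.05 to 0.64, limma adjusted p = 0.171). The interval reaches from a fold change of 0.965 to one of 1.56. With the replicate number as a block, which compares samples of the same number, it was called, as given above. With the means of pairs the limma adjusted p was 0.350. Without water sample 5 the log2 fold change was 0.18 (adjusted p = 0.334), and without proline samples 3 and 4 it was 0.17 (adjusted p = 0.482).

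For APS4, 5 of the 6 same-number differences were above 0, between 0.15 log2 for number 1 and 0.45 for number 3, and that of number 6 was -0.01. Among tested probes, 9.17% had exactly 5 differences above 0 and a further 17.6% had all 6. Water sample 5 was the dimmest for this gene at 0.224, although sample 6 stood at 0.369. The 3 differences between pair means had an SD of 0.12 log2, and 11.3% of tested probes had a lower one.

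CBL encodes cystathionine beta-lyase, which forms homocysteine, the precursor of methionine. It stood at 0.212 at the lowest, 0.245 at the median and 0.366 at the highest in proline, against 0.111, 0.270 and 0.351 in water. The lowest water values were those of samples 5 and 6, at 0.111 and 0.121, while the other 4 water samples lay between 0.257 and 0.351.

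CBL did not pass the test (log2 fold change 0.28, SE 0.30, 95% interval -0.38 to 0.93, limma adjusted p = 0.506). The interval includes fold changes from 0.771 to 1.91. Without water sample 5 the log2 fold change was 0.08, without water sample 6 it was 0.11, and without proline sample 6 it was 0.18. Same-number differences pointed both ways: they were -0.54, -0.41, -0.40 and -0.18 log2 for the numbers 1 to 4, and 1.60 for both 5 and 6.

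The means of samples 5 and 6 differed 3.02-fold for CBL, with 0.351 in proline and 0.116 in water. For samples 1 and 2 the fold was 0.721, and for samples 3 and 4 it was 0.817. Without the mean of water samples 5 and 6, the log2 fold change of CBL was -0.18 (limma adjusted p = 0.711). The 3 pair differences had an SD of 1.15 log2, higher than for 97.4% of tested probes.

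Water samples 5 and 6 were both below the other 4 water samples for 15.1% of tested probes, CBL among them. A pair difference above 0 for samples 5 and 6 and below 0 for both other pairs was found for 7.56% of tested probes. Of the 8 other tested probes whose deposited probe number lies within 5 of that of CBL, 2 showed it. How probe numbers relate to place on the array is not given. In the deposited values the same-number differences of CBL were -0.04 and 0.11 for numbers 1 and 2, 0.73 and 0.84 for 3 and 4, and 1.87 and 1.86 for 5 and 6. What sets samples 5 and 6 apart was not tested.

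**Figure D2:**
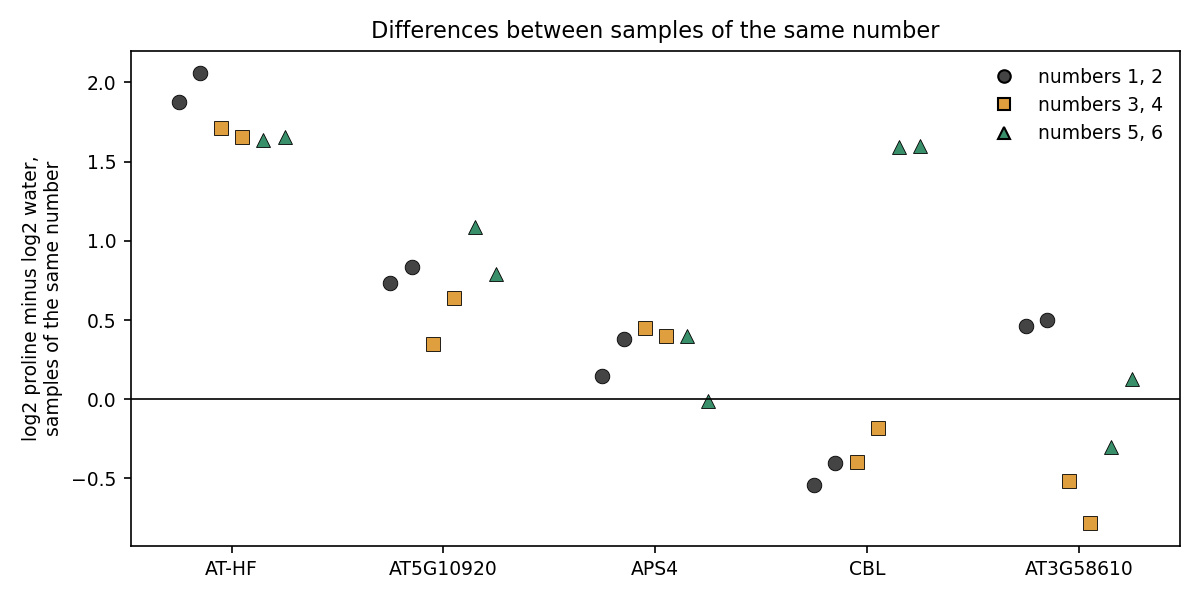
Difference in log2 normalized intensity between the proline and the water sample of the same number, 6 points per gene, with marker shapes for the numbers 1 and 2, 3 and 4, and 5 and 6. AT-HF and AT5G10920 lie above 0 in all 6, CBL lies near 1.60 for numbers 5 and 6 and below 0 for the rest, and AT3G58610 lies on both sides.

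AT3G58610 encodes the acetohydroxy acid isomeroreductase shared by valine, leucine and isoleucine synthesis. Its intensity was 0.222 at the lowest, 0.350 at the median and 0.487 at the highest in proline, against 0.276, 0.367 and 0.473 in water. The groups overlapped over nearly their whole range, and the dimmest and the brightest sample were both proline samples, numbers 4 and 1.

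AT3G58610 did not pass the test (log2 fold change -0.08, SE 0.18, 95% interval -0.48 to 0.31, limma adjusted p = 0.753). This interval covers fold changes from 0.717 to 1.24. The same-number differences were 0.46 and 0.50 log2 for numbers 1 and 2, -0.51 and -0.78 for 3 and 4, and -0.30 and 0.13 for 5 and 6. The direction of AT3G58610 turned in the deposited values, where its log2 fold change was 0.57 (limma adjusted p = 0.011), or 0.16 after subtracting that of the median probe. It also turned without proline samples 3 and 4, to 0.10 (adjusted p = 0.694), and without proline sample 4 alone, to 0.04 (adjusted p = 0.857).

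The enzyme that follows AT3G58610 in this pathway, dihydroxyacid dehydratase, is encoded by AT3G23940, which also had a probe of its own. It stood at 0.092 ± 0.021 in proline and 0.099 ± 0.016 in water (SD, n = 6 each), a log2 fold change of -0.12 (limma adjusted p = 0.588). Neither of the 2 measured branched-chain genes was called after quantile normalization.

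**Figure D3:**
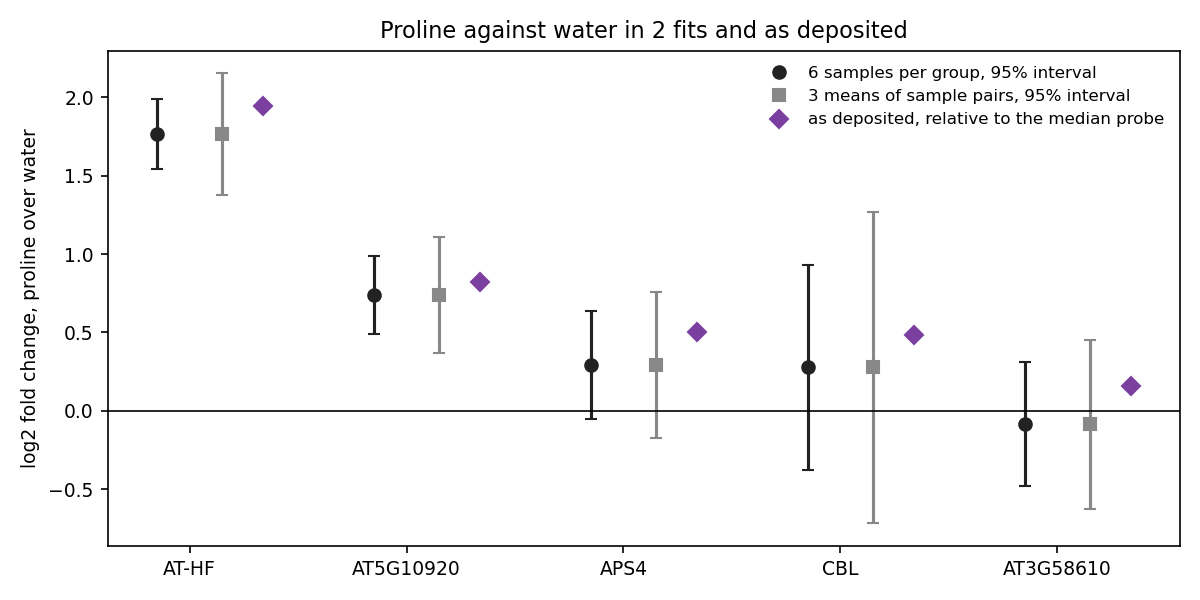
Log2 fold change, proline over water, of each gene with 95% intervals from the fit on 6 samples per group (circles) and on 3 means of sample pairs (squares), and in the deposited values relative to the median probe (diamonds). The intervals of AT-HF and AT5G10920 stay above 0 in both fits and those of APS4, CBL and AT3G58610 include 0.

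Beyond the 5 genes little of these pathways could be read. Lists of 85 genes of histidine, arginine, methionine and aspartate-family, branched-chain, sulfur and proline metabolism held 6 genes with a probe of their own, the 5 genes and AT3G23940. Of the 6, 2 were called higher and 0 lower, against 17.1% and 20.9% of all tested probes. Probes paired with several genes are not in this count. For histidine synthesis 2 such probes were called lower, as given under other observations. One of 11 genes for histidine synthesis, 1 of 12 for arginine, 1 of 17 for methionine and the aspartate family, 2 of 18 for branched-chain amino acids and 1 of 20 for sulfate activation, reduction and cysteine synthesis were measured. None of the 7 genes of proline synthesis and breakdown was among them.

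The ratio of 2 genes within a sample does not change when that sample is scaled by a factor, and it was formed from the deposited values for the 10 pairs of the 5 genes. For the 4 ratios of AT-HF to another gene, every proline sample was above every water sample. These 4 share AT-HF, and its ratio to 83.8% of the 2663 other tested probes above 0 in all samples was separated in the same way. For the 6 ratios without AT-HF the groups overlapped.

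The log2 ratio of AT-HF to AT5G10920 lay between -0.96 and -0.26 in proline and between -1.88 and -1.27 in water. It was 1.12 higher with proline on average, with no overlap between the groups. The ratio of AT-HF to CBL was separated by the narrowest margin, with 1.13 log2 in both the lowest proline and the highest water sample. The log2 ratio of AT5G10920 to AT3G58610 was 1.23 to 2.11 in proline and 0.55 to 1.45 in water.

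**Figure D4:**
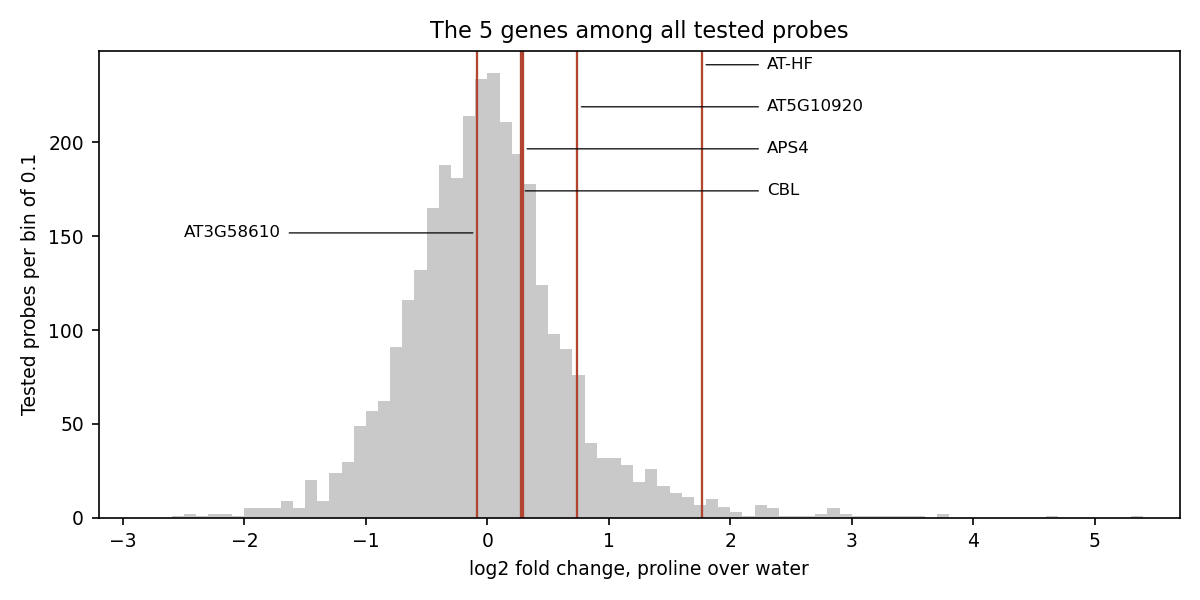
Histogram of the log2 fold change, proline over water, of the 3097 tested probes in bins of 0.1, with a vertical line for each of the 5 genes. AT-HF at 1.77 lies in the upper tail, AT5G10920 at 0.74 on the upper flank, and APS4, CBL and AT3G58610 within the bulk of the probes.

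For each gene the 3 genes of most similar pattern were sought among the other 619 tested probes with 1 gene, by the root-mean-square difference of log2 values centred on their mean over the 12 samples. For AT-HF these were AT4G17650, AT5G49840 and AT2G46630, at differences of 0.211, 0.218 and 0.240 log2, against a median of 0.977 over all 619. Their log2 fold changes were 1.67, 1.91 and 1.89. The difference between the groups is part of the pattern by which genes were chosen. Similar fold changes therefore follow from the choice, here and for the genes below.

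For AT5G10920 they were PSBW, AT1G25500 and AT3G44020, at 0.142, 0.198 and 0.200. PSBW, a photosystem II subunit, had a log2 fold change of 0.64 here and of -0.31 under median centring, where that of AT5G10920 was 0.66. AT3G44020 had 0.61 here and 0.25 under median centring (limma adjusted p = 0.274), so the likeness of both to AT5G10920 depends on the scaling, while AT1G25500 had 0.65 and 0.63. For APS4 they were AT3G32930, AT5G35100 and AT2G18920, at 0.170, 0.195 and 0.203. Of these, AT5G35100 and AT2G18920 were called higher, with log2 fold changes of 0.51 and 0.31 (limma adjusted p = 0.013 and 0.016), and the means of pairs gave no call for either (adjusted p = 0.127 and 0.160).

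The likeness was weaker for the remaining genes. For CBL the nearest genes were AT2G41120, AT1G10310 and AT5G06990, at 0.293, 0.336 and 0.398, against a median of 0.677. The low water samples 5 and 6 are part of the pattern by which these genes were chosen. AT2G41120 has the probe number 2018, close to 2021 for CBL. It is among the 2 nearby probes counted above and so is not a separate observation. For AT3G58610 they were AT2G31920, AT4G19900 and AT2G23390, at 0.252, 0.255 and 0.261, and none of those 3 was called.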

How the data were processed

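The authors deposited 1 table of array intensities, linear and scaled from 0 to 100 as read from the values; array type, scanning and scaling: not given in the sources used here. All columns belonged to the 12 samples, and groups and replicate numbers came from sample titles. Probes were named through GEO's platform annotation, which can be old: 692 with 1 gene, 870 with several (not named) and 1877 unnamed here. Of the 692, 690 matched TAIR10.1 names by gene number.

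Intensities were quantile-normalized, values under 0.0377 (the 5th percentile of positive deposited values) set to that floor, and log2 taken. Probes that never rose above the floor (342) were not tested. The test of proline against water used limma 3.58.1 (R 4.3.3, lmFit, eBayes, two-sided, Benjamini-Hochberg over 3097 probes, threshold 0.05). The fit was also run on simulated data in which all samples were independent. That check could not show what the likeness within sample pairs does to the p-values. The number of arrays limits the precision.

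The replicate numbers occur in both groups. After subtraction of group means, proline and water samples of 1 number correlated at 0.16 to 0.47, over the limit of 0.1 for each number. The highest correlation with another number was 0.083 to 0.174, and it also passed the limit for numbers 1 to 4. For each number it was below the same-number value, which points to pairing by number. This comes from the data, not the labels. The planned fit has no block, and the blocked value is given where it changes a call. Median absolute log2 differences were 0.160 to 0.178 in proline and 0.149 to 0.162 in water between samples 1 and 2, 3 and 4, or 5 and 6, against 0.288 to 0.398 in proline and 0.227 to 0.285 in water between others of a group.

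The genes, lists, tests and alternatives were chosen with earlier results of these data known. Named were the 5 genes, the 3 tested genes most like each by root-mean-square difference, every measured gene of the pathway lists, and markers of green tissue. The ratios within samples, their background, the probes with several genes and the ranges of water samples 5 and 6 were added after the values were seen. A planned search of promoters was not done, since no sequences were used here. Alternatives were other normalizations, floors and filters, the replicate number as a block, means or random blocks of sample pairs, and samples left out; pair means with a block, or with 1 mean left out, were chosen after seeing the data.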

Additional observations from a re-analysis of the deposited data

How the results depend on the processing

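AT-HF was called higher under all 30 alternatives run, with log2 fold changes of 1.62 to 2.36 and a highest limma adjusted p of 0.021. AT5G10920 was called under 26 of 30, with 0.65 to 1.24. The 4 exceptions each leave out 1 mean of a pair, with log2 fold changes of 0.74, 0.72, 0.77 and 0.73, where fewer values were fitted. APS4 was called with the replicate block (0.29, adjusted p = 0.046) and in the deposited values (0.92, adjusted p = 0.0040) alone of 30 alternatives, and CBL in the deposited values alone (0.90, adjusted p = 0.015). The replicate block changed no other call of the 5 genes. AT3G58610 turned to 0.57 in the deposited values and 0.10 without proline samples 3 and 4. The deposited values keep the shift of 0.41 of the median probe; the other causes were not tested.

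Leaving out 1 sample at a time gave 1.71 to 1.86 for AT-HF, 0.67 to 0.83 for AT5G10920, 0.18 to 0.38 for APS4, 0.08 to 0.42 for CBL and -0.18 to 0.04 for AT3G58610, with 1075 to 1136 probes changed. Leaving out 1 mean of a pair gave 1.65 to 1.85 for AT-HF, 0.65 to 0.83 for AT5G10920, 0.16 to 0.44 for APS4, -0.18 to 0.58 for CBL and -0.25 to 0.09 for AT3G58610. It turned AT3G58610 to 0.092 without proline samples 3 and 4 and to 0.02 without water samples 3 and 4, and CBL to -0.18 without water samples 5 and 6. In those fits 131 to 381 probes changed, the fewest without water samples 3 and 4.

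Over the array 1176 probes changed, 530 with the means of pairs, 757 with the pairs as a random block (consensus correlation 0.543) and 540 with the means of pairs and a replicate block, of which the last was chosen after seeing the data. In that last fit AT-HF and AT5G10920 were called (adjusted p = 0.0083 and 0.044).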

Other observations

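Probes paired with several genes, which name no single gene, held some further genes of the lists: 2 probes for histidine synthesis and 3 for arginine synthesis. Both histidine probes were paired with the same 2 genes, both of them on the list, and both probes were lower with proline, against the rise of AT-HF. The brighter of them stood at 0.269 to 0.430 in proline and 0.493 to 0.830 in water, with no overlap (log2 fold change -0.78, SE 0.15, limma adjusted p = 0.0017). The dimmer one stood at 0.032 to 0.104 in proline and 0.092 to 0.149 in water (log2 fold change -0.97, SE 0.21, limma adjusted p = 0.0035), and proline sample 1 was below the floor. Among all tested probes 20.9% were called lower, and the share with every proline sample below every water sample is not given here.

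Both histidine probes were also called with the means of pairs (limma adjusted p = 0.043 and 0.026), under median centring (log2 fold change -0.75 and -1.14) and under cyclic loess (-0.77 and -0.91). In the deposited values their log2 fold changes were -0.18 and -0.59 and neither passed (limma adjusted p = 0.507 and 0.162), whereas AT-HF was called higher there. Relative to the median probe, which was 0.41 higher, they were at -0.60 and -1.01 there. Of the 3 arginine probes, each paired with 1 gene of the list among others, none passed after quantile normalization. For 2 of them the log2 fold changes were -0.08 and 0.02. In the deposited values the probe at 0.02 was called higher (log2 fold change 0.61, limma adjusted p = 0.0033), or 0.19 relative to the median probe. The probe at -0.08 was not called there (limma adjusted p = 0.416). The third was at 0 in all 6 proline samples and at 0 to 0.342 in water, so its fitted change depends on the floor and is not given.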
